A study of Danio rerio with 2 samples.

Results

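The genes described are those of the Wnt signalling pathway in whole zebrafish embryos. They were picked by a rule on names, set with earlier results of these data known. A locus of the authors' expression table belongs to the set when one of its symbols names a part of the pathway. These parts are Wnt ligands (wnt), secreted inhibitors (dkk, sfrp, frzb, wif1), R-spondins and Lgr receptors, and Frizzled, Lrp5, Lrp6 and Ror receptors. Further parts are Dishevelled (dvl) and Naked (nkd) transducers, the beta-catenin destruction complex (axin, apc, gsk3), beta-catenin itself and TCF/LEF factors. The rule found 81 of 34728 loci, with 77 distinct symbols, because nkd3 is listed at 5 loci. RNA came from 1 library of supt16h mutant embryos (supt16h-/-) and 1 library of wild-type siblings, both grown at 28 °C and collected at 32 hours post fertilisation (hpf). The study used these embryos to map, by linkage, a mutation found in a forward genetic screen. The labels name neither the allele nor how many embryos went into a library. The gene supt16h encodes a subunit of the histone chaperone FACT, and it stood at 2.98 FPKM in the mutant library, against 44.4 FPKM in the sibling library. FPKM, fragments per kilobase of transcript scaled to the mapped fragments of a library, is a level per length and can be compared between genes.

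Wnt ligands are secreted, lipid-modified proteins that bind a Frizzled receptor together with Lrp5 or Lrp6. Dishevelled then holds back the destruction complex of Axin, Apc and Gsk3, so that beta-catenin accumulates, enters the nucleus and turns on target genes through TCF/LEF factors. Without the signal the same factors, with Groucho/TLE proteins, keep those targets off. In the zebrafish embryo the pathway is known for patterning the dorsal neural tube and the midbrain-hindbrain boundary, for maintaining the tailbud, and for its part in neural crest and fin development.

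Most Wnt pathway genes stood lower in the mutant library. Of the 81 loci, 63 had a mean of at least 1 FPKM over the libraries and are called measured, and 45 of these lay below 0 and 18 above 0 in log2(mutant FPKM + 1) minus log2(sibling FPKM + 1), the difference used throughout. At least 2-fold lower on that scale were 12 members, or 19.0% of the measured ones, against 8.36% of all 20638 measured genes. These were the ligands wnt7aa, wnt1, wnt7bb and wnt3a, the receptors lrp5, fzd3a, fzd5 and fzd10, the inhibitor sfrp5 and the factors tcf7l2, tcf7l1a and tcf7l1b. At least 2-fold higher was 1 member, the inhibitor dkk1b, or 1.59%, against 6.75% of all measured genes. The median difference of the members was -0.41, beside 0.0012 over all measured genes. With 1 library per genotype no test was possible, and each value describes these libraries only.

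The authors' deposited table calls 0 of the 63 members that it tested (62 measured ones and dvl1b), against 0.469% of all loci tested there. Its lowest q values among the members were 0.312 for wnt7bb and 0.436 for wnt1, and they compare library with library. The standard error implied by the authors' deposited table for a log2 change had a median of 0.76 over these members. In whole embryos, fewer cells that express a gene and less RNA per cell cannot be told apart.

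**Figure D1:**
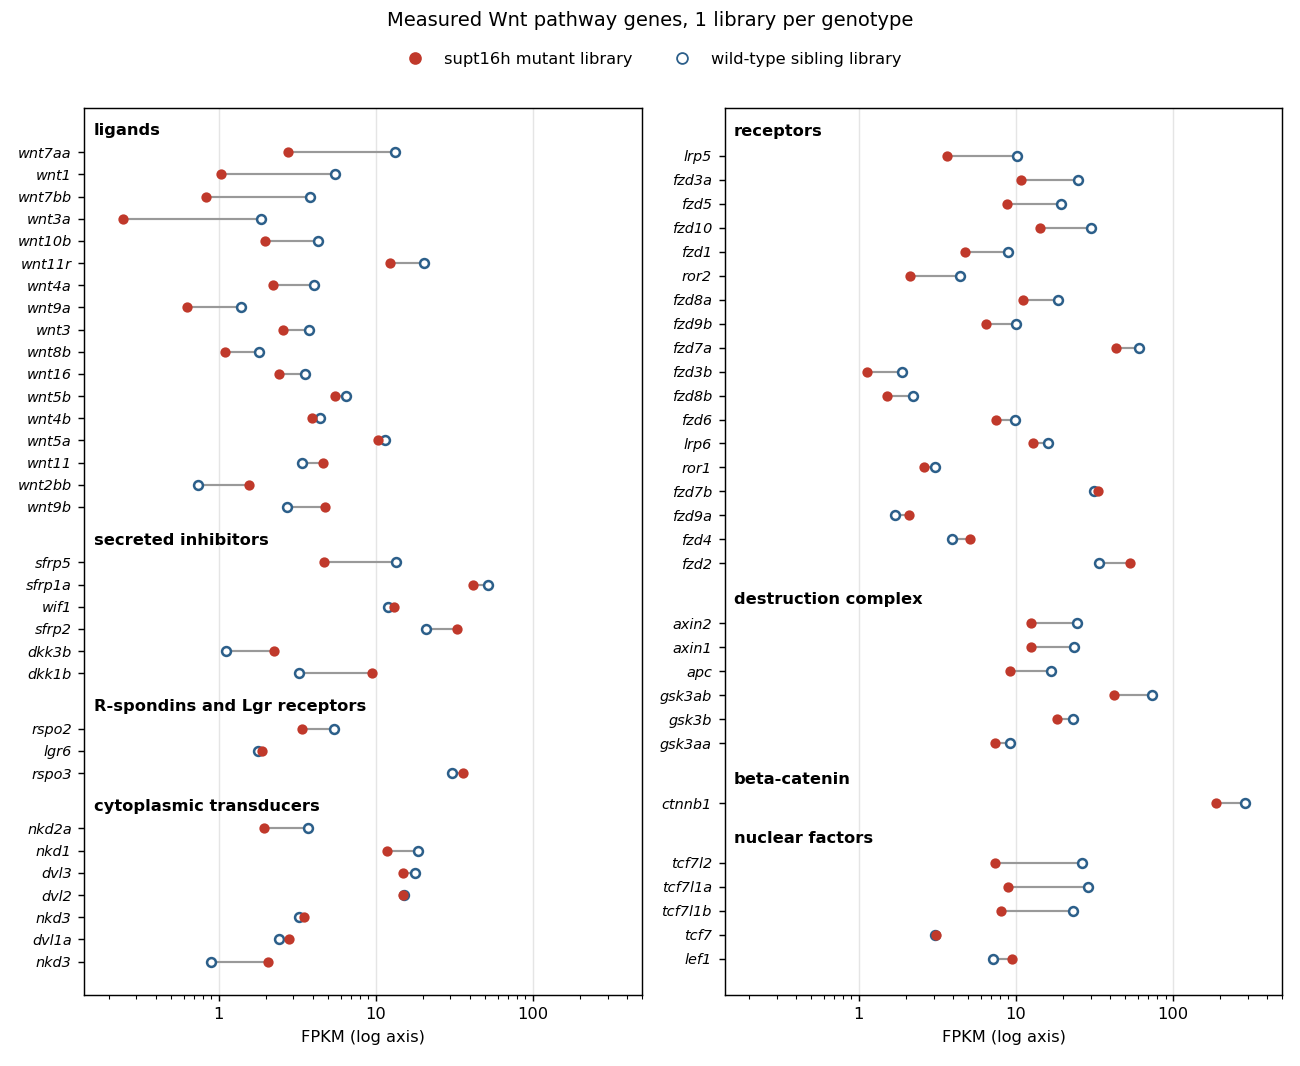
Level of each of the 63 measured Wnt pathway loci in FPKM on a log axis, by role, with filled circles for the mutant library, open circles for the sibling library and a line joining the values of a locus. Within each role the loci run downward from the most negative to the most positive difference, and wnt7aa, wnt1, wnt7bb and wnt3a head the ligands.

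Of the 17 measured ligands, 4 stood at least 2-fold lower in the mutant library. The ligand wnt7aa, whose relatives act in the developing brain, stood at 2.75 FPKM in the mutant library, against 13.2 FPKM in the sibling library, a level 4.80-fold lower. The ligand wnt1, which marks the midbrain-hindbrain boundary and the dorsal neural tube, stood at 1.03 FPKM in the mutant library, against 5.50 FPKM in the sibling library, 5.32-fold lower. Levels of wnt7bb were 0.833 FPKM in the mutant library and 3.80 FPKM in the sibling library, 4.57-fold lower. The ligand wnt3a, which acts with wnt1 in the dorsal neural tube, was at 0.245 FPKM in the mutant library and 1.87 FPKM in the sibling library. Its ratio, 7.65-fold, rests on the lowest level of these 4, and the difference with 1 FPKM added was -1.21. The authors' deposited table gives log2 changes of -2.26 for wnt7aa, -2.41 for wnt1, -2.19 for wnt7bb and -2.94 for wnt3a, with implied standard errors of 0.96, 0.95, 0.79 and 1.65 in that order.

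Apart from wnt7aa, the ligands with the highest mean levels were wnt11r, wnt5a, wnt5b and wnt4b. The ligand wnt11r, the most abundant member of this role by its mean, was at 12.3 FPKM in the mutant library and 20.2 FPKM in the sibling library. The locus that carries wnt5a was at 10.3 FPKM in the mutant library and 11.4 FPKM in the sibling library. That locus also carries a second gene name, so its value is not that of wnt5a alone. The related wnt5b was at 5.48 FPKM in the mutant library and 6.51 FPKM in the sibling library, and wnt4b was at 3.91 FPKM in mutant and 4.41 FPKM in sibling. None of these reached 2-fold.

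Ligands above 0 were 3 of the 17 measured. They were wnt9b (4.73 FPKM in the mutant library, 2.74 FPKM in the sibling library), wnt11 (4.61 FPKM in mutant, 3.42 FPKM in sibling) and wnt2bb (1.56 FPKM in mutant, 0.744 FPKM in sibling), the last known in zebrafish for liver specification. The plain ratio of wnt2bb, mutant over sibling, was 2.10. Another 6 ligands stood lower by less than 2-fold on the scale used. Of these, wnt10b (1.99 FPKM in mutant, 4.27 FPKM in sibling) and wnt9a (0.631 FPKM in mutant, 1.39 FPKM in sibling) had plain ratios of 2.15-fold and 2.21-fold. The others were wnt4a (2.22 FPKM in mutant, 4.06 FPKM in sibling), wnt3 (2.57 FPKM in mutant, 3.79 FPKM in sibling), wnt8b (1.103 FPKM in mutant, 1.798 FPKM in sibling) and wnt16 (2.44 FPKM in mutant, 3.58 FPKM in sibling). The locus of wnt16 also carries the symbol cped1, so its reads cannot be assigned to wnt16 alone. Over the role, 4 ligands were at least 2-fold lower and 0 higher, with a median of -0.42, and the summed ligand level was 58.8 FPKM in the mutant library and 92.7 FPKM in the sibling library.

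Some of these ligands lie side by side on the Zv9 build. On chromosome 23, wnt10b (27881864 to 27888417) and wnt1 (27892988 to 27898691) are 4.57 kb apart, and their differences were -0.82 and -1.68. On chromosome 2, wnt3a (3599278 to 3652698) and wnt9a (3695124 to 3764786) are 42.4 kb apart, with differences of -1.21 and -0.55. On chromosome 9, wnt6b and wnt10a are 38.5 kb apart, and neither was measured. In both measured pairs each neighbour stood lower in the mutant library, by unequal amounts. The other ligands at least 2-fold lower lie on chromosome 11 from 28363425 to 28377375 (wnt7aa) and on chromosome 25 from 1943777 to 2012601 (wnt7bb).

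**Figure D2:**
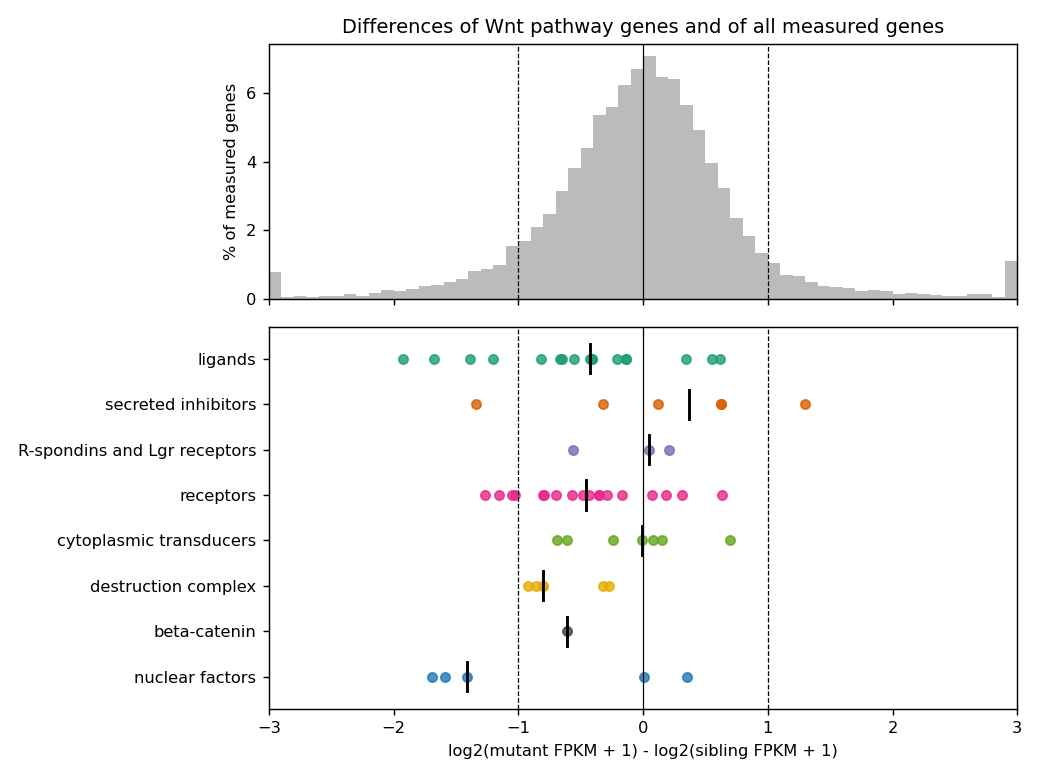
Difference between the libraries, log2(mutant FPKM + 1) minus log2(sibling FPKM + 1), as a histogram in percent of the 20638 measured genes (top, the end bars holding all values beyond the axis) and as points for the measured Wnt loci by role (bottom), with role medians as black bars and 2-fold as dashed lines. Ligands, receptors, destruction complex and nuclear factors have medians of -0.42, -0.46, -0.80 and -1.41, and secreted inhibitors one of 0.37.

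Secreted inhibitors were the role with the highest median, 0.37 over 6 measured loci, and they went in both directions. The inhibitor dkk1b, which binds Lrp5 and Lrp6 and is itself known to be turned on by beta-catenin, stood at 9.42 FPKM in the mutant library and 3.24 FPKM in the sibling library, 2.91-fold higher. The authors' deposited table lists a log2 change of 1.54 for it (q = 0.682), and the standard error that follows is 0.73. Its paralogue dkk1a had 1.26 FPKM in the mutant library and 0.350 FPKM in the sibling library, and its mean was too low to count as measured. On the Zv9 build dkk1b lies on chromosome 12 from 7149323 to 7151441. The divergent family member dkk3b stood at 2.26 FPKM in the mutant library and 1.12 FPKM in the sibling library, a plain ratio of 2.02-fold higher.

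The inhibitor sfrp5, one of the Frizzled-related proteins that bind Wnt ligands outside the cell, went the other way. Its level was 4.71 FPKM in the mutant library and 13.5 FPKM in the sibling library, 2.86-fold lower. It lies on chromosome 13 from 40471770 to 40507554. Its relatives stayed within 2-fold: sfrp2 was at 32.8 FPKM in the mutant library and 20.9 FPKM in the sibling library, and sfrp1a at 41.5 FPKM in mutant and 52.2 FPKM in sibling. The Wnt inhibitory factor wif1 was at 13.1 FPKM in the mutant library and 11.9 FPKM in the sibling library. Summed over the role, inhibitor levels were 103.8 FPKM in the mutant library and 102.9 FPKM in the sibling library, while the summed ligand level had a mutant over sibling ratio of 0.634.

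R-spondins are secreted proteins that raise Wnt signalling by protecting Frizzled receptors, with Lgr proteins as their receptors. Of 5 loci in this role 3 were measured, and none was 2-fold apart. The most abundant, rspo3, was at 35.9 FPKM in the mutant library and 30.9 FPKM in the sibling library. Levels of rspo2 were 3.38 FPKM in mutant and 5.47 FPKM in sibling, and those of lgr6 were 1.89 FPKM in mutant and 1.796 FPKM in sibling.

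All 18 receptor loci were measured, and 4 stood at least 2-fold lower in the mutant library and 0 higher, with a median of -0.46. The largest difference was that of lrp5, a co-receptor that binds Wnt beside a Frizzled. It stood at 3.65 FPKM in the mutant library and 10.2 FPKM in the sibling library, 2.80-fold lower, while the other co-receptor, lrp6, was at 12.9 FPKM in mutant and 16.1 FPKM in sibling. The level of lrp6 was thus above that of lrp5 in each library.

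Among Frizzleds, fzd3a, known for axon growth and neuron migration, was at 10.8 FPKM in the mutant library and 25.1 FPKM in the sibling library. The eye field receptor fzd5 was at 8.83 FPKM in the mutant library and 19.3 FPKM in the sibling library. The dorsal neural tube receptor fzd10 was at 14.3 FPKM in the mutant library and 30.1 FPKM in the sibling library. These were 2.34-fold, 2.19-fold and 2.11-fold lower. The last lies next to the limit, at a difference of -1.03 and at -0.99 with upper quartile scaling, and the member nearest to the limit on its other side was axin2 at -0.93.

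The 3 most abundant Frizzleds stayed within 2-fold, but their order differed. In the mutant library fzd2 led with 53.5 FPKM, followed by fzd7a with 43.5 FPKM and fzd7b with 33.3 FPKM. In the sibling library fzd7a led with 61.03 FPKM, followed by fzd2 with 34.2 FPKM and fzd7b with 31.7 FPKM. All 14 Frizzled loci together summed to 204 FPKM in the mutant library and 259 FPKM in the sibling library. Of that sum, fzd2 made up 26.2% in the mutant library and 13.2% in the sibling library, and fzd7b 16.3% in mutant and 12.3% in sibling. The combined weight thus lay more on fzd2 and fzd7b, and less on fzd10 (6.99% in mutant, 11.6% in sibling) and fzd3a (5.27% in mutant, 9.71% in sibling). Frizzleds above 0 were fzd2, fzd4, fzd7b and fzd9a.

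The Ror receptors, tyrosine kinase-like proteins that bind Wnt5 ligands, were below 5 FPKM in each library. Levels of ror2 were 2.13 FPKM in the mutant library and 4.44 FPKM in the sibling library, a plain ratio of 2.08-fold, and those of ror1 were 2.60 FPKM in mutant and 3.05 FPKM in sibling.

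**Figure D3:**
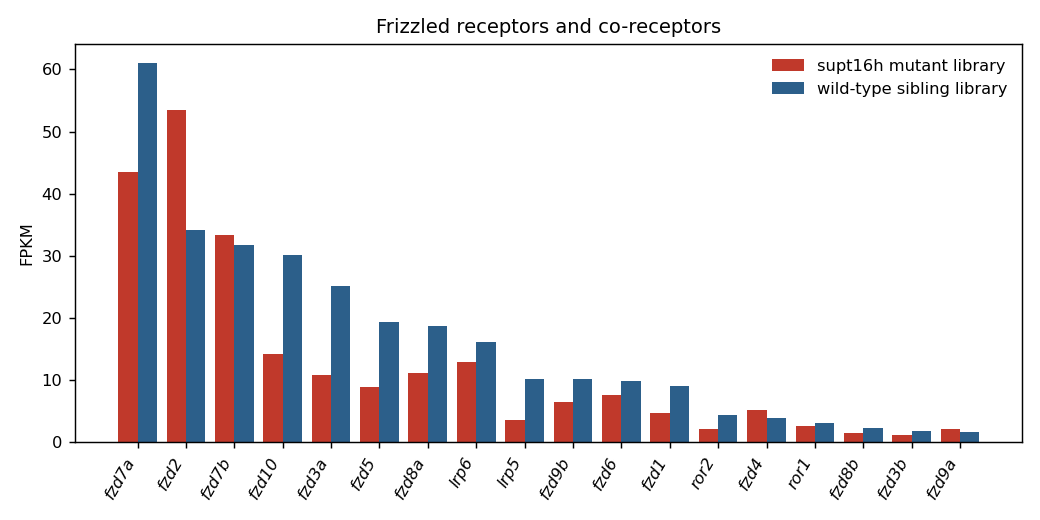
Levels in FPKM of the 14 Frizzled loci, lrp5, lrp6, ror1 and ror2, with the mutant library left of the sibling library at each gene and genes ordered by their sibling level. The tallest bar is fzd2 (53.5 FPKM) in the mutant library and fzd7a (61.03 FPKM) in the sibling library. In plain FPKM the mutant bars of fzd10, fzd3a, fzd5, lrp5 and ror2 are less tall than the sibling bars by more than 2-fold.

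The Dishevelled genes under the rule, which carry the signal from the receptors into the cell, differed little where they were measured. The level of dvl2 was 15.0 FPKM in the mutant library and 15.1 FPKM in the sibling library, that of dvl3 was 14.9 FPKM in mutant and 17.8 FPKM in sibling, and that of the dvl1a locus, which carries a second gene name, was 2.79 FPKM in mutant and 2.41 FPKM in sibling. The exception was dvl1b, at 0.342 FPKM in the mutant library and 1.51 FPKM in the sibling library. Its mean fell short of the limit for measured genes, and the authors' deposited table gives it a log2 change of -2.14 with q = 0.507. A measured second DVL3 locus, outside the rule because of its capital name, had a difference of -0.62 (2.60 FPKM in mutant, 4.52 FPKM in sibling).

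Naked genes encode proteins that bind Dishevelled and dampen the signal. The level of nkd1, a known target of the pathway, was 11.8 FPKM in the mutant library and 18.5 FPKM in the sibling library, and that of nkd2a was 1.94 FPKM in mutant and 3.73 FPKM in sibling. The symbol nkd3 stands at 5 adjoining loci on chromosome 19, and reads may be divided among copies, so single values there are uncertain. The longest of the 5 was at 3.50 FPKM in the mutant library and 3.26 FPKM in the sibling library. The other measured one was at 2.08 FPKM in mutant and 0.902 FPKM in sibling, a plain ratio of 2.31-fold higher.

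All 6 genes of the destruction complex under the rule stood lower in the mutant library, and none by 2-fold, with a median of -0.80. Of all measured genes, 49.9% lay below 0. A second GSK3B locus, outside the rule because of its capital name, stood higher (9.99 FPKM in mutant, 5.20 FPKM in sibling). The scaffold axin1 was at 12.6 FPKM in the mutant library and 23.6 FPKM in the sibling library. The second scaffold, axin2, which is also a widely used readout of beta-catenin activity, was at 12.5 FPKM in the mutant library and 24.6 FPKM in the sibling library, 1.97-fold lower. The authors' deposited table gives axin2 a log2 change of -0.98 with an implied standard error of 0.62. The levels of apc were 9.17 FPKM in mutant and 16.8 FPKM in sibling. Among the kinases, gsk3ab was at 42.0 FPKM in mutant and 74.0 FPKM in sibling, gsk3b at 18.3 FPKM in mutant and 23.0 FPKM in sibling, and gsk3aa at 7.37 FPKM in mutant and 9.14 FPKM in sibling. Beta-catenin, encoded by ctnnb1 on chromosome 16, was the most abundant member, with 189 FPKM in the mutant library and 289 FPKM in the sibling library, 1.53-fold lower. No locus carried the symbol ctnnb2.

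The TCF/LEF factors differed by subfamily in these libraries. The 3 tcf7l genes each stood about 3-fold lower in the mutant library, whereas lef1 stood higher (0.35) and tcf7 was level (0.0061, and -0.013 when centred on the median of genes with at least 10 FPKM). The factor tcf7l1a, known in zebrafish as a repressor needed for the forebrain and eyes, was at 8.97 FPKM in the mutant library and 29.1 FPKM in the sibling library, 3.24-fold lower. Its paralogue tcf7l1b was at 8.03 FPKM in the mutant library and 23.0 FPKM in the sibling library, 2.87-fold lower. The factor tcf7l2, expressed in the brain and gut, was at 7.42 FPKM in the mutant library and 26.3 FPKM in the sibling library, 3.54-fold lower. The authors' deposited table gives log2 changes of -1.70 for tcf7l1a, -1.52 for tcf7l1b and -1.82 for tcf7l2, with implied standard errors of 0.76, 0.84 and 1.02 in that order.

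In contrast, lef1, mainly an activator and itself a target of the pathway, stood at 9.42 FPKM in the mutant library and 7.18 FPKM in the sibling library. The level of tcf7 was 3.096 FPKM in the mutant library and 3.08 FPKM in the sibling library. The authors' deposited table gives log2 changes of 0.39 for lef1 and 0.0081 for tcf7, with implied standard errors of 1.08 and 0.93. The change of lef1 was thus smaller than its implied error, and the contrast between the subfamilies was not tested. Of the summed level of the 5 factors, lef1 and tcf7 together made up 33.9% in the mutant library and 11.6% in the sibling library. Their own sum was 12.5 FPKM in mutant and 10.3 FPKM in sibling. The tcf7l genes summed to 24.4 FPKM in mutant and 78.4 FPKM in sibling, so most of the difference in share lay with them. The gene lef1 was the highest of the 5 in the mutant library and the fourth in the sibling library. On the Zv9 build tcf7l1a lies on chromosome 10 from 43560857 to 43663014, tcf7l1b on chromosome 8 from 54385857 to 54508714 and tcf7l2 on chromosome 12 from 32668748 to 32790417. The other factors lie on chromosomes 1 (lef1) and 21 (tcf7), so no pair of the 5 shares a chromosome.

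Zebrafish carry duplicate copies of many of these genes. Of 17 pairs of a and b copies, both copies were measured in 9. Both copies lay below 0 in 6 of the 9, namely fzd3, fzd8, gsk3a, tcf7l1, wnt4 and wnt5, and the copies lay on either side of 0 for fzd7, fzd9 and wnt9. The tcf7l1 copies both stood at least 2-fold lower (-1.59 and -1.41). The more abundant copy had the larger difference in 4 of the 6 pairs below 0, such as fzd3 (-1.15 for fzd3a, -0.44 for fzd3b) and gsk3a (-0.80 for gsk3ab, -0.28 for gsk3aa). The less abundant copy had it in the other 2, wnt4 (-0.65 for wnt4a, -0.14 for wnt4b) and wnt5 (-0.21 for wnt5b, -0.14 for wnt5a). The widest gap in a measured pair was that of wnt9, with -0.55 for wnt9a and 0.62 for wnt9b. The standard errors implied by the authors' deposited table were 3.93 for wnt9b, 15.5 for wnt4b and 1.37 for gsk3ab. They exceed the differences of these copies. The same held for every other copy of the 9 measured pairs except fzd3a, fzd8a, tcf7l1a, tcf7l1b and wnt4a. Most of the directions counted here thus rest on differences within the implied error, and no gap between copies was tested.

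Members with a low mean are accounted for here. The 18 loci under 1 FPKM on average were wnt2, wnt8a, wnt7ba, wnt10a, wnt6b, wnt2ba, sfrp1b, dkk1a, frzb, dkk3a, dkk2, rspo1, rspo4, dvl1b, nkd3l and 3 of the nkd3 loci. None was 2-fold apart with 1 FPKM added, but at levels this low the added 1 FPKM leaves little room for such a difference. Plain ratios ran wider, such as 6.15-fold lower for dkk2 and 4.93-fold higher for rspo1. The gene rspo4 was listed at 0 in both libraries, and wnt2ba at 0 in the mutant library and 0.115 FPKM in the sibling library. The R-spondin rspo1 had 0.703 FPKM in the mutant library and 0.143 FPKM in the sibling library, and dkk2 had 0.105 FPKM in mutant and 0.646 FPKM in sibling.

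Other genes of the pathway were taken from 5 lists of partners and reported targets, which held 66 measured loci. Of these, 10 (15.2%) stood at least 2-fold lower in the mutant library and 2 (3.03%) higher, against 8.36% and 6.75% of all measured genes. The authors' deposited table calls 0 of them, against 0.469% of all loci tested there. Genes of ligand release had 0 of 4 measured loci 2-fold apart with 1 FPKM added: wls, the carrier of Wnt proteins to the surface, was at 52.0 FPKM in the mutant library and 65.5 FPKM in the sibling library, and porcn, the enzyme that lipidates them, at 1.81 FPKM in mutant and 4.17 FPKM in sibling, a plain ratio of 2.30-fold. Among 8 receptor regulators 1 was 2-fold lower, znrf3, a ubiquitin ligase that removes Frizzleds from the membrane (5.70 FPKM in mutant, 12.5 FPKM in sibling). Its difference was -1.01, and sostdc1b fell just short at -0.99. The latter was at 0.577 FPKM in mutant and 2.13 FPKM in sibling, a plain ratio of 3.69-fold lower. Among 11 destruction complex partners 0 were lower and 1 higher, tnks1bp1, which encodes a protein that binds tankyrase (12.8 FPKM in mutant, 5.01 FPKM in sibling).

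The nuclear partners had the lowest median of these lists, -0.78 over 16 measured loci, with 4 at least 2-fold lower, 0 higher and 14 below 0. These loci include smarca2 (3.39 FPKM in mutant, 3.18 FPKM in sibling), which was matched to the listed smarca4a only through a synonym. Groucho/TLE corepressors, which TCF factors recruit, were led by tle2, at 17.2 FPKM in the mutant library and 61.5 FPKM in the sibling library, 3.58-fold lower. Other genes of that family were listed as gro2 (13.6 FPKM in mutant, 27.2 FPKM in sibling), gro1 (18.6 FPKM in mutant, 31.5 FPKM in sibling) and aes (3.28 FPKM in mutant, 6.79 FPKM in sibling). The corepressor genes ctbp2 (10.4 FPKM in mutant, 22.04 FPKM in sibling) and ctbp1 (76.3 FPKM in mutant, 148 FPKM in sibling) stood lower as well, the first by 2-fold.

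Coactivators of beta-catenin differed by unequal amounts. The adaptor bcl9 was at 10.03 FPKM in the mutant library and 25.4 FPKM in the sibling library, 2.53-fold lower, while its relative bcl9l was at 2.93 FPKM in mutant and 2.28 FPKM in sibling, and pygo2, which binds both, at 31.9 FPKM in mutant and 33.6 FPKM in sibling. The inhibitor ctnnbip1, which blocks beta-catenin from TCF, was at 37.4 FPKM in mutant and 64.2 FPKM in sibling. The remaining 2-fold lower locus was hmx3, a homeobox gene of the ear and lateral line that the list also held (2.28 FPKM in mutant, 6.46 FPKM in sibling).

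**Figure D4:**
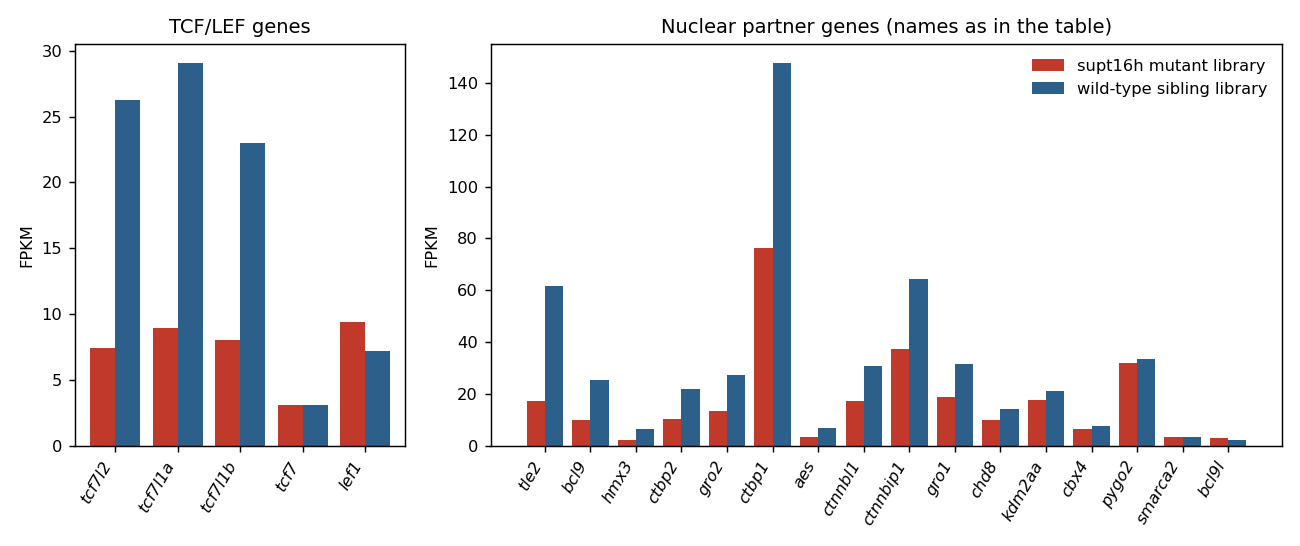
Levels in FPKM of the 5 TCF/LEF genes (left) and of the 16 measured nuclear partner loci (right), with the mutant library left of the sibling library at each gene and genes ordered by difference. The 3 tcf7l genes stand at 7.42 to 8.97 FPKM in the mutant library and 23.0 to 29.1 FPKM in the sibling library, while tcf7 is level and lef1 higher in the mutant library.

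Reported targets of beta-catenin went in both directions. Of 27 measured loci, 5 stood at least 2-fold lower and 1 higher, with 15 below 0 and 12 above 0 and a median of -0.27. The lower ones were pax3a and pax7a, dorsal neural tube and neural crest factors, sox9b, the proneural gene neurog1 and the cyclin ccnd1. Their levels were 2.30 FPKM in mutant and 14.4 FPKM in sibling for pax3a, 2.08 FPKM in mutant and 8.53 FPKM in sibling for pax7a, and 10.4 FPKM in mutant and 45.8 FPKM in sibling for sox9b. Levels of ccnd1 were 108 FPKM in mutant and 221 FPKM in sibling, and those of neurog1 were 12.6 FPKM in mutant and 35.2 FPKM in sibling. The higher one was the posterior factor cdx4 (5.98 FPKM in mutant, 1.61 FPKM in sibling). Targets of the tailbud went in both directions. Above 0 were ntla, the zebrafish Brachyury gene (27.9 FPKM in mutant, 16.5 FPKM in sibling), the sp5 locus (6.16 FPKM in mutant, 4.50 FPKM in sibling) and sp5l (3.16 FPKM in mutant, 1.61 FPKM in sibling). Below 0 was fgf8a (5.41 FPKM in mutant, 6.73 FPKM in sibling), and so were msgn1, tbx6 and tbx16, whose means were too low to count as measured (-0.12, -0.58 and -0.30). The other unmeasured targets were mespaa (0.28), cdx1a (0.78) and fgf20a (0.10) above 0 and cdx1b (-0.035) below it.

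Most markers of neural tissue and of proliferation stood lower in the mutant library beside the Wnt genes, and their part in these differences was not tested. The labels call the samples whole embryo, and markers of brain, muscle, skin, blood and vessels were measured. Neural progenitor markers summed to 583 FPKM in the mutant library and 1496 FPKM in the sibling library, 7 of 9 being 2-fold lower, with a median of -1.41. The authors' deposited table calls 1 of these 9, her4.1 (8.01 FPKM in mutant, 57.4 FPKM in sibling), against 0.469% of all loci tested there. Roof plate and dorsal neural tube markers summed to 170 FPKM in mutant and 255 FPKM in sibling, with 3 of 11 lower and a median of -0.67. Midbrain-hindbrain boundary markers summed to 35.4 FPKM in mutant and 65.3 FPKM in sibling, with 2 of 8 lower and a median of -0.78. Of these, pax2a stood at 5.63 FPKM in mutant and 20.6 FPKM in sibling, pax5 at 0.549 FPKM in mutant and 3.99 FPKM in sibling, and gbx2 at 5.42 FPKM in mutant and 3.55 FPKM in sibling. Neuron markers had 1 of 7 lower and a median of -0.26, and neural crest markers 1 of 7 lower and a median of -0.30. Of all measured genes, 8.36% stood at least 2-fold lower, so 1 locus of 7 does not set a list apart.

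Several lists of tissues outside the nervous system had medians above 0. Epidermis had a median of 0.54 over 7 loci, skeletal muscle 0.46 over 10, the median fin fold 0.23 over 13, and endoderm with liver 0.44 over 5. In that last list 4 loci lay above 0 and 1 below, and 2 of the 5 were at least 2-fold higher, against 6.75% of all measured genes. The apolipoprotein gene apoa1a made up most of the sum, with 2448 FPKM in the mutant library and 287 FPKM in the sibling library. The other was tfa (65.8 FPKM in mutant, 7.23 FPKM in sibling). The authors' deposited table calls both, against 0.469% of all loci tested there. The liver factor prox1a stood at 3.79 FPKM in mutant and 7.89 FPKM in sibling, and the liver gene fabp10a was listed at 0 in both. Of the 10 tailbud and presomitic mesoderm loci 3 were measured, with a median of 0.73. These were ntla, cdx4 and fgf8a, which are also on the target list, so their values are not a separate readout. Other marker lists share genes with the target list too, among them fgf8a, pax3a and msxb. The unmeasured tailbud loci not named above were her7 (0.29) and her1 and mespba, the last 2 listed at 0 in both libraries. Blood and endothelium lay below 0 with a median of -0.49 over 12 loci. Proliferation genes summed to 1117 FPKM in the mutant library and 1999 FPKM in the sibling library. In that list 8 of 12 were 2-fold lower and 0 higher, against 8.36% and 6.75% of all measured genes. Above 0 in that list were ccnb1 (276 FPKM in mutant, 231 FPKM in sibling) and cdk1 (78.7 FPKM in mutant, 74.7 FPKM in sibling). The median of the Wnt genes, -0.41, stood between those of the neural progenitor and the epidermis markers. So did the medians of every partner list, of most marker lists and of all measured genes (0.0012), so this placement does not set the Wnt genes apart.

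**Figure D5:**
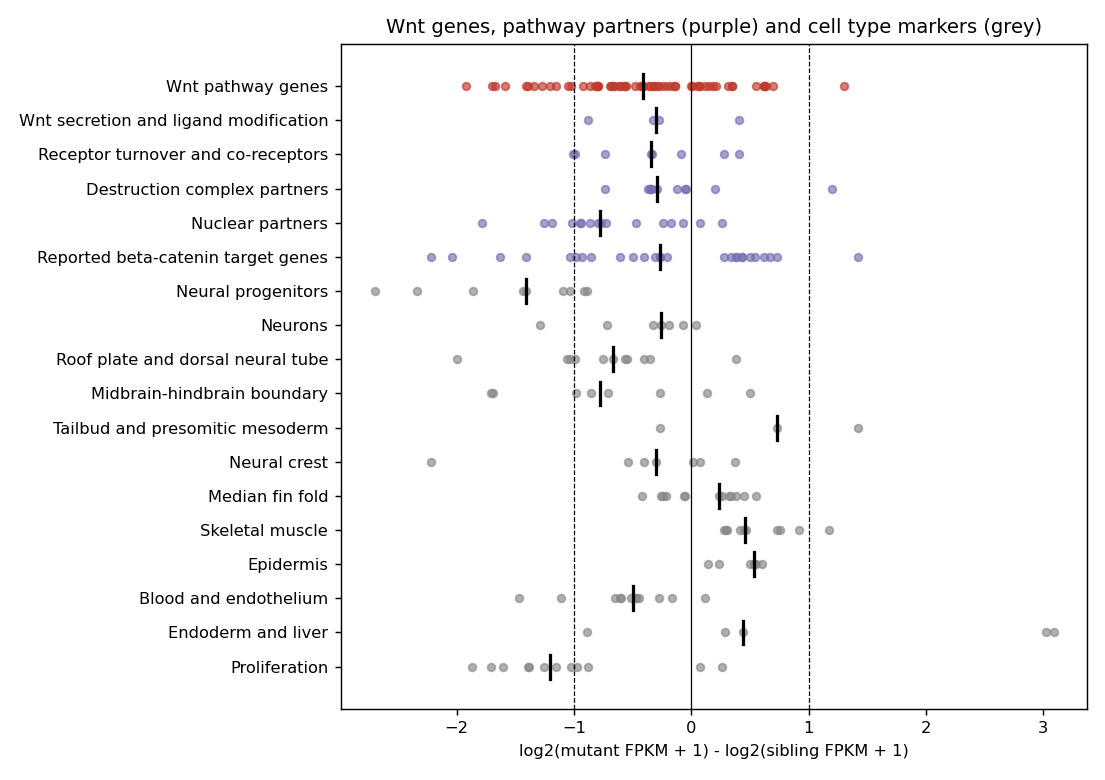
Difference between the libraries, log2(mutant FPKM + 1) minus log2(sibling FPKM + 1), for every measured gene of the Wnt set (red), the pathway partner lists (purple) and the cell type marker lists (grey), with medians as black bars and 2-fold as dashed lines. The Wnt median of -0.41 lies between neural progenitors at -1.41 and epidermis at 0.54, as do the medians of every partner list and of most marker lists.

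Level and locus length were set beside the differences. Among the 26 members with a mean of at least 10 FPKM, 6 stood at least 2-fold lower and 0 higher, 23.1% against 9.71% of all genes at that level, with a median of -0.61. Among the 37 members between 1 and 10 FPKM, 6 were lower and 1 higher, 16.2% against 7.45%. Member loci are long, with a median span of 35.2 kb, beside 14.5 kb over all measured genes. The 21 member loci of 60 kb or more had a median of -0.55, beside -0.19 for all 3356 genes of that span, and the 12 under 5 kb, most of them Frizzleds, had -0.35, beside 0.065 for all 5473. Across the 63 members, which share both libraries, Spearman's rho between span and difference was -0.22, and across all measured genes it was -0.14.

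The series was made to map a mutation, and its variant table gives a further readout. Of 7447 distinct variant sites, all marked homozygous, 17 lay in 12 of the Wnt genes, with a median coverage of 4 reads at the member sites and also of 4 over all sites. Amino acid changes were listed at 5 sites, in apc, fzd1, lrp6 and sfrp1b, and none of these had more than 4 reads. A change at a splice acceptor site was listed in dkk3b, with 5 reads. Sites with at least 10 reads were 5: synonymous ones in axin1 on chromosome 3 at 42963614 (19 reads) and 43008920 (32 reads), insertion or deletion sites in dvl2 on chromosome 7 at 21451441 (62 reads) and 21452225 (48 reads), and an insertion in fzd2 on chromosome 3 at 31759826 (136 reads). The last is annotated as a frame shift, 1 of 221 such sites in the table. Its quality score was 88.5, beside 220 and 222 at the axin1 sites and 22 and 134 at the dvl2 sites, all with fewer reads. The inserted letters were not legible in the table, and the labels do not say in which library the sites were called. The gene supt16h itself lies on chromosome 7, where dvl2 lies 19.7 Mb and nkd1 37.2 Mb from it and no other member under the rule lies on that chromosome. The LGR4 locus, outside the rule because of its capital name, lies there too, from 33703500 to 33794730.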

How the data were processed

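RNA was measured in 1 supt16h mutant library and 1 wild-type sibling library, grouped by their titles. Per the labels' protocols, polyadenylated RNA was made into stranded paired-end libraries. The Zv9 build and the tools TopHat2 2.1.1, Cuffdiff, Cufflinks 2.2.1 and CASAVA 1.8 are listed in the submitters' processing notes, without roles. Levels are FPKM as the authors deposited them in a Cuffdiff gene table. The q-value, the p-value and the log2 fold change in it are the authors' deposited comparison of library with library. An implied standard error was taken as their log2 ratio over their statistic, whose sign is reversed, since the deposited p-value matched its normal tail within 0.001 at 100% of loci with status OK. The variant table, made with SnpEff 3.1k per the file headers, holds the authors' deposited coverage (a read count at each site) and quality score.

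Counts of genes leave out loci with status FAIL or HIDATA and those averaging under 1 FPKM. Differences used a pseudocount of 1 FPKM and a fixed size of 2-fold, on which folds of low genes come out too small, and no p-value was computed. FPKM hides depth: steps of values below 1 FPKM gave a depth ratio of 1.53, mutant over sibling, from 329 of 4528 loci, and FPKM summed to 1095950 in the mutant library and 1029580 in the sibling library. Starts were raised by 1, since the table counts from 0. List symbols were matched also through RefSeq synonyms. Calculations used Python 3.11.15 with pandas 2.3.3 and were tested on simulated data. Members and lists were chosen with earlier results of these data known. All members may be named. Values are given for those 2-fold apart, the most abundant of each role and their paralogues, for partners 2-fold apart or abundant, and for some others picked after their values were seen. Alternatives were other pseudocounts, limits, scalings, sizes and symbol matches. Sequences were not used here.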

Additional observations from a re-analysis of the deposited data

How the results depend on the processing

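The count of 12 lower Wnt genes was 9 to 15 under every alternative that kept 2-fold and a pseudocount of at most 1 FPKM, and the direction of the median held under all of them. With 5 FPKM added, 4 were lower (tcf7l2, tcf7l1a, tcf7l1b and wnt7aa), 0 higher, and the median was -0.23. With 0.1 FPKM added, 15 were lower and 2 higher, or 23.8% and 3.17%, against 11.1% and 9.46% of all measured genes. At 1.5-fold 25 were lower and 6 higher, and at 3-fold 4 were lower and 0 higher. The share of all measured genes that was lower was 3.86% with 5 FPKM added, 18.4% at 1.5-fold and 3.13% at 3-fold. The share of members was 6.35%, 39.7% and 6.35% in the same order. Higher were 2.99%, 16.1% and 3.21% of all measured genes in that order, against 0%, 9.52% and 0% of members. Upper quartile scaling, a shift of 0.042, left fzd10 short of 2-fold (-0.99) and the transducers with a median of 0.034 in place of -0.0056. Centring turned tcf7 to -0.013. With 5 FPKM added wnt3a was at -0.39, wnt7bb at -0.59 and wnt1 at -0.80, against -1.21, -1.39 and -1.68 with 1 FPKM. No paired analysis was possible because each genotype has 1 library, and no library could be left out. The levels of these 3 ligands in the mutant library, 0.245 to 1.03 FPKM, are low, and what depth adds to their error was not tested.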

Other observations

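The expression table also holds 4 loci with capital names that belong to the pathway and lie outside the rule, and they were looked up after the values were seen. LGR4, a receptor of R-spondins, stood at 6.71 FPKM in the mutant library and 9.19 FPKM in the sibling library. A second GSK3B locus stood at 9.99 FPKM in the mutant library and 5.20 FPKM in the sibling library, above 0 where all 6 destruction complex genes of the rule lay below it. A second DVL3 locus stood at 2.60 FPKM in mutant and 4.52 FPKM in sibling. A second WNT7A locus, at 0.261 FPKM in mutant and 0.802 FPKM in sibling, had too low a mean to count as measured. With these loci included, 12 of 66 measured members were at least 2-fold lower and 1 higher.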
